A study of Rattus norvegicus with 10 samples.

Results

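The 9 genes followed here are expressed in the leptomeninges, the thin membranes on the brain surface: the transporters Slc6a13, Slc13a4 and Slc47a1, the secreted proteins Ptgds, Mgp and Islr, and the transcription factors Foxc1, Foxd1 and Tbx18. All probe sets that the annotation of the rat genome array assigned to 1 of these genes alone were taken, which gave 9 of 31042 probe sets and 8 of the 9 genes. Foxc1 had 2 probe sets, and Foxd1 was not analysed here because no probe set was listed for it alone. The RNA came from hypothalamus of male Wistar rats, with 1 array per rat. Rats were 3 weeks old at the start, received powdered feed while they got used to the cages, and were then fed for 8 days solid chow (C group, 5 rats, Chow 1 to Chow 5) or powdered feed (P group, 5 rats, Powder 1 to Powder 5). The labels give an age of 4 weeks at sampling. The study asked how chewing acts on heart rate through the hypothalamus, and compared hypothalamic transcripts between the feeds for that purpose. The labels name no other treatment.

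The leptomeninges consist of the arachnoid and the pia. Cells of the arachnoid barrier separate cerebrospinal fluid from blood and move solutes across that border with transporters. These cells and the fibroblasts below them secrete proteins into the fluid and the matrix. The hypothalamus has a large pial surface at the base of the brain, so its RNA can contain a share from these membranes. In tissue of mixed cells such as this, fewer cells of a type and less RNA per cell cannot be told apart. Several of the genes are also used elsewhere: Ptgds by oligodendrocytes and choroid plexus, Slc13a4 by choroid plexus, and Mgp and Tbx18 by mural cells of vessels.

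The RefSeq table of the GRCr8 build held the promoters of 6 of the 9 genes, Ptgds, Slc13a4, Islr, Tbx18, Foxc1 and Foxd1. The 250 bases before the start of Ptgds (chr3:28682979-28683228, minus strand), Slc13a4 (chr4:64955987-64956236, minus strand) and Tbx18 (chr8:97559966-97560215, minus strand) are shown because, among the genes with a promoter in the table, these had the most similar order of rats, as described below. They are written 5′ to 3′ on the strand of the gene, and capitals mark matches, on either strand, to the motifs named after them.
Ptgds: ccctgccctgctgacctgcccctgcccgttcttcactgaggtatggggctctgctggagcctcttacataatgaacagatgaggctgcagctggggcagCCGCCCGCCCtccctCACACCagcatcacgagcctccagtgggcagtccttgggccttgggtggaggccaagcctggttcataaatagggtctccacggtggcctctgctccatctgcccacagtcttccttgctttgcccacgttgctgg
Slc13a4: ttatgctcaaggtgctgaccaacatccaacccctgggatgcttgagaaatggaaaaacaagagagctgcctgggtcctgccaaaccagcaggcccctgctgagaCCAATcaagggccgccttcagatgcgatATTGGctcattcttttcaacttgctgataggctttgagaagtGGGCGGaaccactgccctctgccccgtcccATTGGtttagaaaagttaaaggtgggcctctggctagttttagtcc
Tbx18: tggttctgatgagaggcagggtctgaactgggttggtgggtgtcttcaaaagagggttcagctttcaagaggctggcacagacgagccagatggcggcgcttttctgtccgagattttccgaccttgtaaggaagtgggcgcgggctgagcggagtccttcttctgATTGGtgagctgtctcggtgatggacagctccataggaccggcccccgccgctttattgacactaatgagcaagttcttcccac

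A set of 6 motifs was searched on both strands in these windows and in the same window of all 33469 promoters of the table. The CCAAT box, CCAAT, was present in 4 of the 6 promoters and in 34.0% of all promoters, and Slc13a4 held it at 3 places. The GC box, GGGCGG, was present in 4 of 6 and in 30.5% of all. In Ptgds its 2 matches overlap each other. The core of the T-box motif, GGTGTG, was present in 3 of 6, among them Ptgds, and in 15.4% of all. The forkhead motifs GTAAACA (3.21% of all) and ATAAACA (4.04%) and the TATA box TATAAA (12.9%) had no match in the 6 windows. No motif was held by all 6 promoters. These matches describe the letters in the windows and say nothing of binding.

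The deposited values are log2 signals from a summarization that leaves a probe set nearly flat when its probes share no signal. Over the 10 rats, 92.6% of all probe sets had a standard deviation (SD) below 0.001, and 1391 (4.48%) had one above 0.1, here called varying. A total of 7 genes, each with 1 probe set, varied: Slc6a13, Slc13a4, Slc47a1, Ptgds, Mgp, Islr and Tbx18. Average-linkage clustering of the 10 arrays put Chow 1 and Chow 4 on a branch of 2 and the other 8 on another, so results are given with and without these 2 rats. Of 13 hypothalamic neuron genes 8 varied, among them those of oxytocin (Oxt) and vasopressin (Avp). That describes spread between rats and does not check the tissue label. Among the 13, mean log2 signals were 12.97 for Pmch, 11.89 for Avp, 11.14 for Cartpt and 10.42 for Oxt. The probe sets of Pomc, Ghrh, Nr5a1 and Sim1 had means of 7.23 or below and SDs of 0.0015 or less.

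The largest spread was found among the barrier transporters. Slc13a4, a sodium-coupled carrier of sulfate, ranked 4th in SD among all 31042 probe sets (SD 0.97), and its highest rat stood 6.43-fold above its lowest. Its log2 signals were 9.36, 7.40, 7.01, 9.06 and 7.25 in Chow 1 to Chow 5. In Powder 1 to Powder 5 they were 6.68, 8.54, 8.73, 7.03 and 7.54. A set of 4 rats, 2 of each diet (Chow 1, Chow 4, Powder 2 and Powder 3), lay at 8.54 or above, and the other 6 at 7.54 or below. The groups overlapped over most of their range.

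Slc6a13, also called GAT-2, takes up GABA and taurine. Its signals were 8.49, 7.25, 7.03, 8.36 and 7.15 in Chow 1 to Chow 5 and 7.01, 7.85, 8.13, 7.09 and 7.30 in Powder 1 to Powder 5. The same 4 rats were high, with an empty interval of 0.55 between them and the other 6, against 1.005 for Slc13a4. Slc47a1, known as MATE1, exchanges organic cations for protons. Its signals were 7.54, 6.20, 6.61, 7.34 and 6.29 in the C rats and 6.31, 6.87, 7.01, 6.16 and 6.43 in the P rats, in the same order. The 4 highest rats were again the same, but the order of the lower 6 was another one: Powder 4 was lowest and Chow 3 was 5th. For both genes the C and P values overlapped.

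Among the secreted proteins, Ptgds had the 14th largest SD of all probe sets (0.75). Its product, lipocalin-type prostaglandin D synthase, forms prostaglandin D2 and is an abundant protein of cerebrospinal fluid. Its signals were 13.14, 11.89, 11.49, 13.05 and 11.59 in Chow 1 to Chow 5 and 11.09, 12.73, 12.93, 11.50 and 12.01 in Powder 1 to Powder 5, a 4.13-fold range. The order of the 10 rats was identical to that for Slc13a4 and for Slc6a13, from Chow 1, Chow 4, Powder 3 and Powder 2 down to Powder 1. An interval of 0.72 separated the upper 4 rats from the lower 6.

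Mgp encodes matrix Gla protein, a vitamin K-dependent inhibitor of calcification. It varied least of the 7 genes (SD 0.21), with signals of 9.44, 9.16, 9.20, 9.67 and 9.14 in the C rats and 8.99, 9.14, 9.22, 8.99 and 9.08 in the P rats. Chow 4 and not Chow 1 was highest, and Powder 2 was not separated from the lower rats. Islr, a leucine-rich repeat protein of mesenchymal cells, had signals of 7.91, 7.29, 7.20, 7.86 and 7.45 in the C rats and 7.08, 7.40, 7.67, 7.17 and 7.21 in the P rats. Chow 1, Chow 4 and Powder 3 were its 3 highest rats, and Chow 5 stood above Powder 2. All C values of Mgp were above the P mean of 9.09, yet the ranges of the groups overlapped for both genes.

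Of the transcription factors, Tbx18, a T-box factor of mural cells and fibroblasts, varied 2.74-fold between rats. Its signals were 7.52, 6.55, 6.20, 7.05 and 6.26 in the C rats and 6.07, 6.61, 7.08, 6.42 and 6.60 in the P rats. Chow 1, Powder 3 and Chow 4 were highest, and Powder 2 and Powder 5 were nearly equal. Foxc1, a forkhead factor needed for the formation of the meninges, was flat in both of its probe sets, at 6.44 and 6.28 with SDs of 0.000128 and 0.000166. A flat probe set in these data gives no information on whether the transcript differs between rats.

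**Figure D1:**
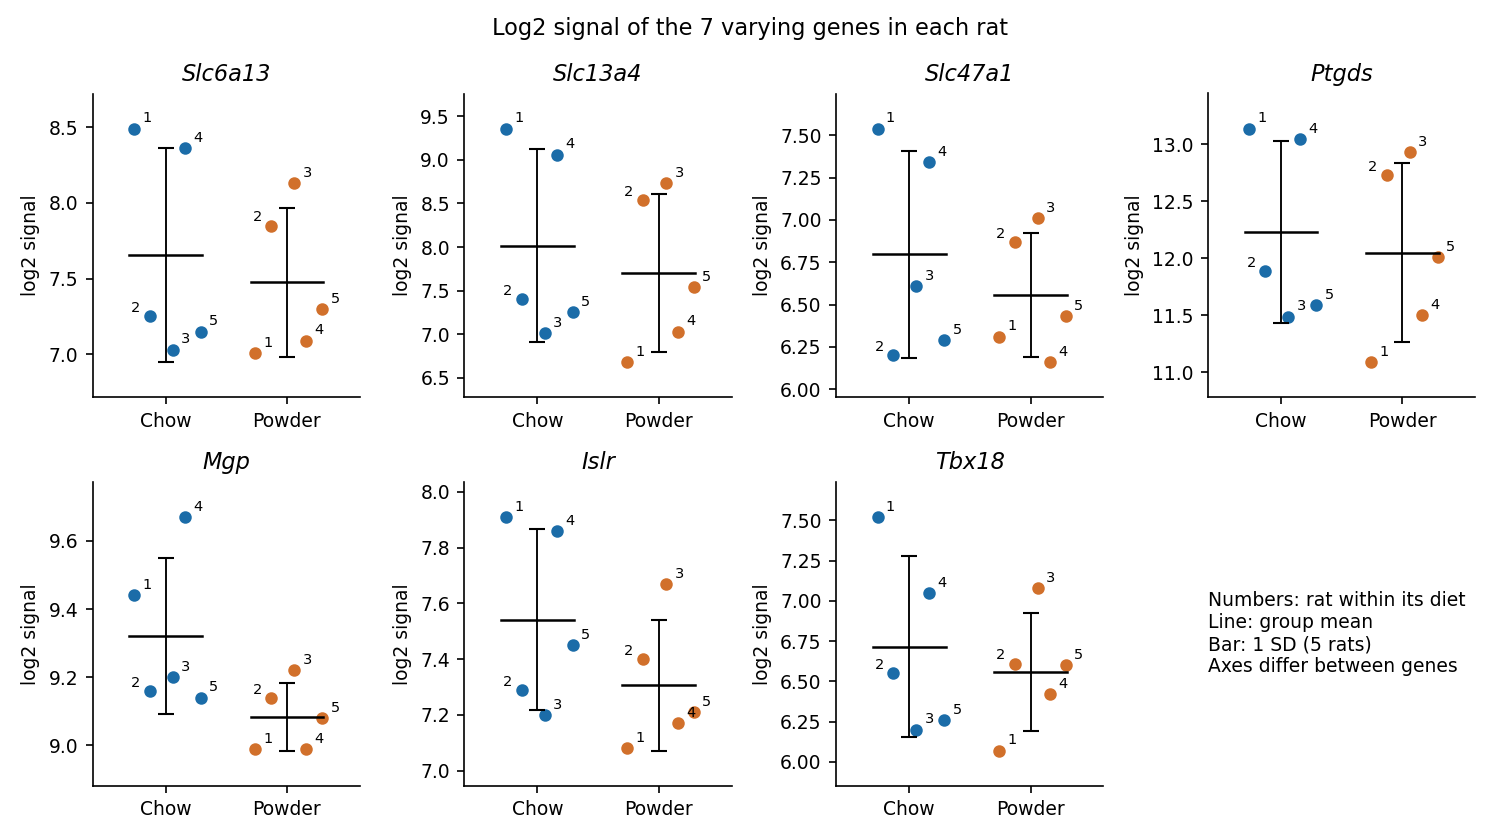
Log2 signal (vertical axes, which differ between panels) of the 7 varying genes in each rat by diet, with the mean as a line and 1 SD as a bar. Chow 1, Chow 4 and Powder 3 are above the mean of all rats in every panel, and the 2 diets overlap in every panel.

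For the comparison of diets, rank products, the test named in the study's methods, called 6 of the 9 probe sets higher in the C group and none lower at an estimated share of false positives (FDR) below 0.05. Over all probe sets 0.944% were called higher and 0.815% lower. Of the 1391 varying probe sets, 20.4% were called higher and 14.8% lower. The 6 were Slc13a4 (FDR 0), Mgp (FDR 0.00611), Islr (FDR 0.00763), Ptgds (FDR 0.00784), Slc47a1 (FDR 0.0157) and Slc6a13 (FDR 0.0205). Tbx18 had an FDR of 0.0704 and was not called. An FDR of 0 means that no permuted value was as small. The permutations moved values among probe sets within each array and not rats between diets. This FDR therefore does not measure the spread between rats. The median C minus P difference was 0.23 over the 7 varying genes and 0.031 over the 1391 varying probe sets.

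For the varying genes other than Mgp, these differences were smaller than the SD of either diet group. Slc13a4 was 8.02 ± 1.11 in chow-fed and 7.70 ± 0.91 in powder-fed rats (mean ± SD, n = 5 each), a difference of 0.31 with a standard error (SE) of 0.62 and a 95% interval from -1.10 to 1.72. For Ptgds the means were 12.23 ± 0.80 and 12.05 ± 0.78, a difference of 0.18 (SE 0.48, 95% interval -0.92 to 1.28). The differences were 0.18 (SE 0.37) for Slc6a13, 0.24 (SE 0.31) for Slc47a1, 0.23 (SE 0.17) for Islr and 0.16 (SE 0.29) for Tbx18. Mgp was closest to a separation of the diets, at 9.32 ± 0.23 against 9.09 ± 0.10, a difference of 0.23 (SE 0.11, 95% interval -0.0083 to 0.48). Exact two-sided permutation tests over all assignments of 5 against 5 rats gave p = 0.0714 for Mgp, and p from 0.214 to 0.706 for the other 6 genes. In limma, with Benjamini-Hochberg adjustment over 31042 probe sets, 0 of the 9 passed and each adjusted p was 0.9995. The number with an unadjusted limma p below 0.05 was also 0 of 9, against 3.54% of all probe sets. Non-overlapping groups were seen for 0 of the 9 and 0.432% of all. Only the spread between single rats on 1 array each enters these p-values.

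Diet accounted for 36.1% of the variance between rats for Mgp and 17.5% for Islr. For Slc13a4 it accounted for 2.86%, for Ptgds 1.59%, for Slc6a13 2.68%, for Tbx18 3.44% and for Slc47a1 6.66%, beside a median of 4.39% over the varying probe sets. The 2 genes that ranged least between rats, Mgp and Islr, were those whose variance followed diet most.

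Without Chow 1 and Chow 4, 3 C rats remained against 5 P rats, and rank products called none of the 9 probe sets higher and 5 lower in the C group. Over all 31042 probe sets, 45 were then called higher and 259 lower, against 293 and 253 with all rats. The C minus P difference was then -0.49 for Slc13a4 (FDR 0.00176), -0.40 for Ptgds (FDR 0.00259), -0.33 for Slc6a13 (FDR 0.00933), -0.22 for Tbx18 (FDR 0.00938) and -0.19 for Slc47a1 (FDR 0.0218). Mgp (0.081) and Islr (0.0057) were not called. Every 95% interval of these differences included 0, and limma's adjusted p was 0.9997 for each. Leaving out the 2 highest C rats lowers the C mean by construction. Leaving out Chow 1 alone left Mgp as the one gene called higher, with Slc13a4 and Ptgds called lower. Over all probe sets, 120 were called higher and 223 lower without Chow 1, and 146 and 238 without Chow 4. Leaving out Chow 4 alone left Slc13a4 and Mgp called higher, with Ptgds called lower and Slc13a4 called in both directions.

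**Figure D2:**
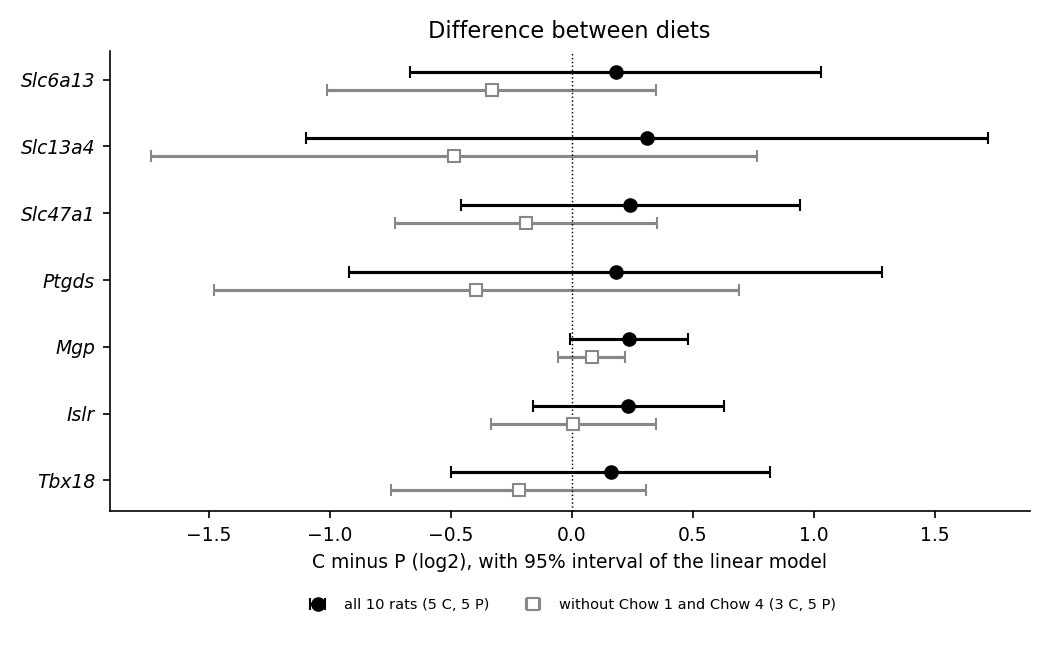
Difference of the group means, C minus P in log2 units (horizontal axis), with its 95% interval for the 7 varying genes, from all 10 rats (filled circles) and without Chow 1 and Chow 4 (open squares). All intervals include 0, and 5 of the 7 differences have the opposite sign without these rats.

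Rats of the same diet differed by more than the diets did. Averaged over the 7 genes, the deviation from the mean of 10 rats was 0.84 in Chow 1, 0.70 in Chow 4, 0.47 in Powder 3 and 0.23 in Powder 2. The other 6 rats lay between -0.61 in Powder 1 and -0.19 in Powder 5. Chow 1, Chow 4 and Powder 3 were above the mean for 7 of 7 genes, Powder 2 for 4 and Chow 5 for 1, and the other 5 rats for none.

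**Figure D3:**
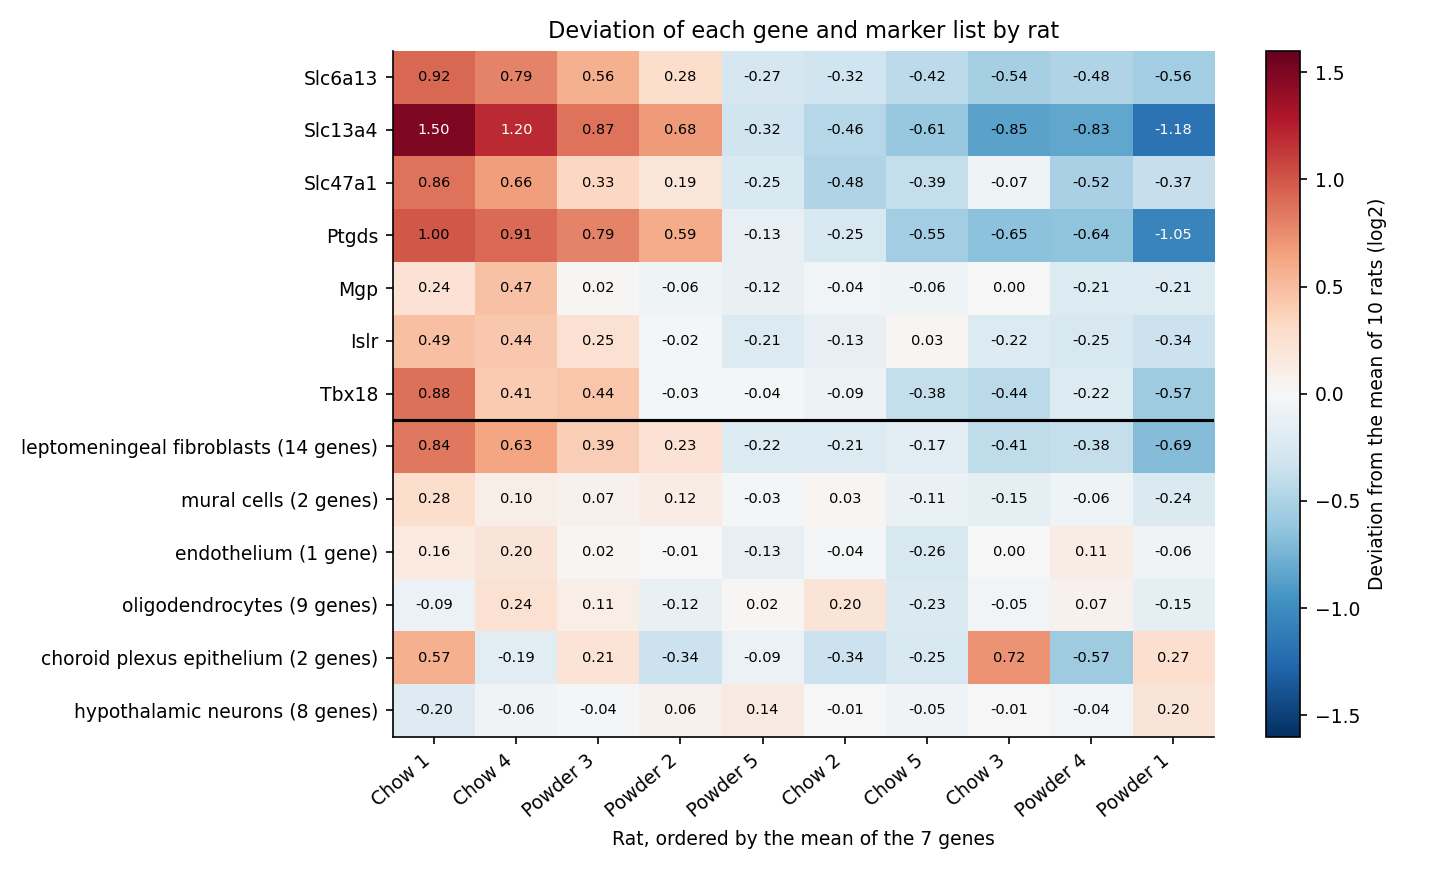
Deviation from the mean of 10 rats in log2 units (color and printed number) for the 7 genes and, below the line, for the mean of the varying genes of 6 cell type lists, with rats ordered by the mean of the 7 genes. The leptomeningeal list runs from 0.84 in Chow 1 to -0.69 in Powder 1, as the 7 genes do, and the choroid plexus list is highest in Chow 3.

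Over all 10 rats the 21 pairs of genes had Pearson r between 0.71 and 0.99, with a mean of 0.888, and Spearman rho between 0.697 and 1. These pooled values are a description without a test, because the rats fell into an upper 4 and a lower 6 for Slc13a4, Ptgds and Slc6a13. Within diets, as deviations from the diet means, r ran from 0.768 to 0.992 (mean 0.911). The r of Slc13a4 with Ptgds was 0.991, that of Slc6a13 with Slc13a4 0.991 and that of Slc6a13 with Ptgds 0.972. The lowest was 0.715 for Mgp with Tbx18. Without Chow 1 and Chow 4, the 2 rats farthest from the median for every pair, r ran from 0.483 to 0.994 (mean 0.770). The 3 pairs among Slc13a4, Ptgds and Slc6a13 kept an r of 0.969 or more there.

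Among the lower 6 rats alone, the mean r of the 21 pairs was 0.426, and 17 were positive. These 6 were set apart by the largest gap of Slc13a4, after its values were seen, so their correlations are given without a test. The r was 0.985 for Slc13a4 with Ptgds, 0.957 for Slc6a13 with Slc13a4 and 0.943 for Slc6a13 with Ptgds, each with a rho of 1. Tbx18 had an r of 0.921 with Ptgds, 0.899 with Slc6a13 and 0.877 with Slc13a4, each with a rho of 0.943. Slc47a1 had r of -0.020 with Slc13a4, 0.014 with Ptgds and -0.18 with Slc6a13 in these rats, where its pooled r had been 0.892 to 0.944. Mgp and Islr lay between 0.105 and 0.581 with every gene other than Slc47a1. The 4 upper rats are too few for a correlation.

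**Figure D4:**
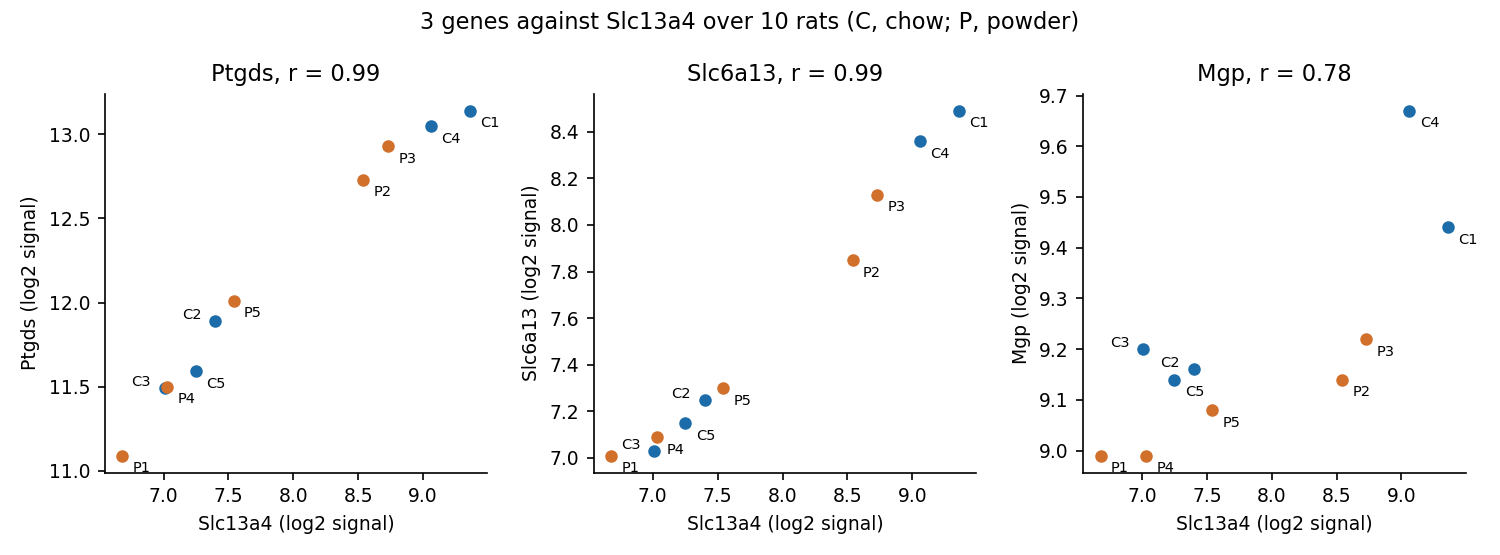
Log2 signals of Ptgds, Slc6a13 and Mgp (vertical axes) against Slc13a4 (horizontal axes), 1 point per rat, C rats in blue and P rats in orange, with the pooled Pearson r. Ptgds and Slc6a13 keep the order of Slc13a4 in all 10 rats, and Mgp does not.

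The size of the movement differed between genes. Per log2 unit of Slc13a4, the fitted slope over the 10 rats was 0.77 for Ptgds, 0.60 for Slc6a13, 0.47 for Slc47a1, 0.44 for Tbx18, 0.28 for Islr and 0.17 for Mgp. The slopes are on the compressed log2 scale of each probe set and do not compare transcript numbers between genes.

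The gene whose pattern was most like that of the 7 was Ogn, which encodes the matrix proteoglycan osteoglycin (mean r with the 7 genes 0.944 over 10 rats). It was followed by Aldh1a2, a retinoic acid synthesis enzyme (0.942), Rarres2, which encodes chemerin (0.942), the collagen gene Col1a2 (0.940), the fibronectin gene Fn1 (0.939), and the amino acid transporter Slc6a20a (0.939). Gjb2, a connexin, Crabp2, a retinoic acid binding protein, Mpzl2 and Colec12 completed the first 10 at 0.938 each. Ogn was at 9.20 in Chow 1, 8.91 in Chow 4, 8.68 in Powder 3 and 8.42 in Powder 2, and between 7.21 and 7.76 in the other 6. Of the 1384 other varying probe sets, 203 (14.7%) had a mean r above 0.8, and the median was 0.216. Rank products called 9 of the 10 higher in C rats, all but Fn1, beside 20.4% of the varying probe sets, and limma called 0. The genes were chosen for their likeness to the 7, so these calls add no separate evidence. The C minus P differences lay between 0.11 (Fn1, SE 0.23) and 0.38 (Gjb2, SE 0.36), and the SE was larger than the difference for the 9 genes other than Gjb2.

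**Figure D5:**
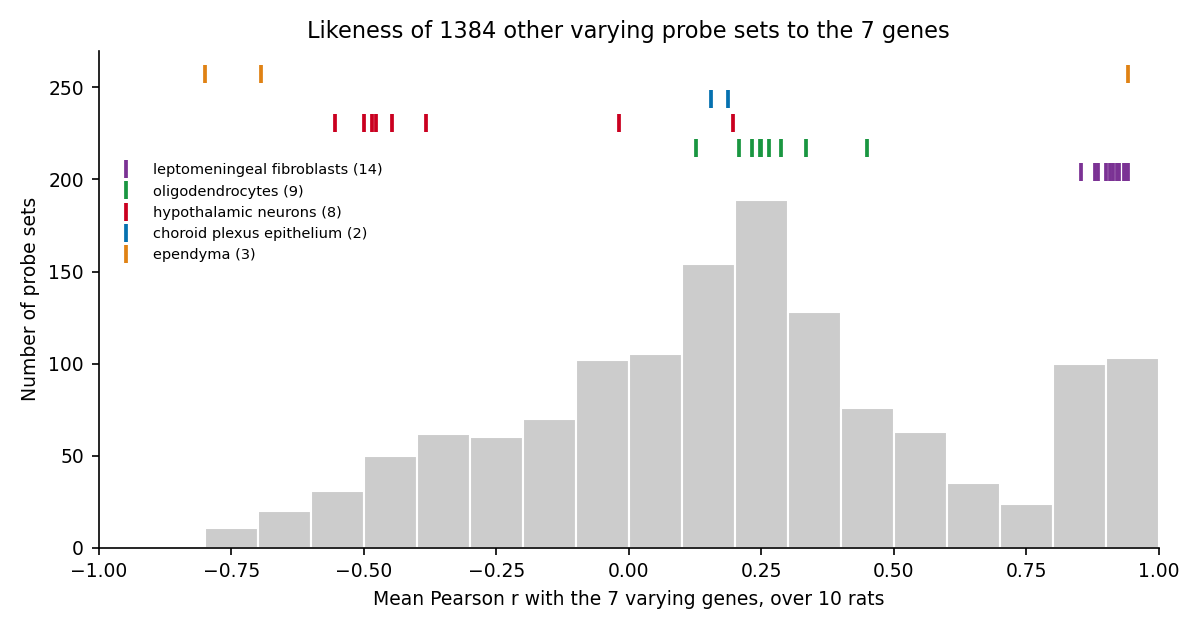
Number of the 1384 other varying probe sets (vertical axis) by their mean Pearson r with the 7 genes over 10 rats (horizontal axis), with ticks for the varying genes of 5 cell type lists. The 14 leptomeningeal genes lie between 0.853 and 0.942, and the 9 oligodendrocyte genes between 0.128 and 0.450.

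Other genes of the same membranes that varied had values that moved with the 7. Of 21 further leptomeningeal fibroblast genes, 18 had a probe set and 14 varied. Rank products called all 14 higher in C rats, beside 20.4% of the varying probe sets, and did not call the other 4. The median C minus P difference was 0.24 over the 18. The 14 varying genes had a median r of 0.923 with the 7 genes. Of those that did not vary 3 were flat, and Cdh11 had a mean signal of 9.75 with an SD of 0.024. Without Chow 1 and Chow 4 none was called higher and 6 were called lower: Col1a2, Ogn, Igf2, Igfbp2, Crabp2 and Slc22a6. Limma called 0 of the 18.

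Markers of the other cells that use these genes were set beside them. Of 11 choroid plexus genes measured, 2 varied and 1, Ttr, was called higher. Ttr, the transthyretin gene that defines this epithelium, had a mean r of 0.156 with the 7 genes. Its signals were 9.29, 7.18, 9.50, 7.54 and 7.86 in Chow 1 to Chow 5 and 8.74, 7.49, 8.36, 6.83 and 7.82 in Powder 1 to Powder 5. Of the 4 rats with high Slc13a4 and Ptgds, Chow 1 and Powder 3 had Ttr above its mean of 8.06, and Chow 4 and Powder 2 had it below. Its highest value was in Chow 3, a rat with low Slc13a4 and Ptgds. Of 9 oligodendrocyte genes all varied, with r between 0.128 and 0.450, and 0 were called. Of 7 endothelial genes 1 varied and 0 were called. Of 10 mural cell genes 2 varied, Vtn (r = 0.892) and Tagln (r = 0.562), and 0 were called. Ependymal genes went both ways: Rarres2 had an r of 0.942, and Dynlrb2 (-0.80) and Tmem212 (-0.69, its probe set of highest mean) ran opposite to the 7 genes and were called lower. Of 3 erythrocyte genes 2 were called higher, with r of -0.18 and -0.12, and of 8 anterior pituitary genes 2 were called higher, with r of 0.356 and 0.456. Of 13 hypothalamic neuron genes 8 varied, with r from -0.55 to 0.197. Of the 13, 7 were called lower in the C group and 0 higher. Npy and Sst varied and were not called, and Cartpt was called lower with an SD of 0.095, below the threshold for varying. Of all varying probe sets, 14.8% were called lower and 20.4% higher, and of all probe sets 0.815% and 0.944%. The part of the membrane share of each sample in any of these differences was not tested.

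The partners of each role were mostly flat or uncalled. For prostaglandin D2, 6 of 7 listed genes were measured and 0 were called. Only Ptgs2, a cyclooxygenase, varied (difference 0.070, SE 0.069, r = 0.586). Of 8 vitamin K and BMP partners of Mgp, 2 were called higher: Bmp6 (difference 0.27, SE 0.29, r = 0.928) and Bmp4 (0.11, SE 0.065, r = 0.305), both BMP ligands. Bmp6 was at 8.74 in Chow 1, 8.28 in Chow 4, 8.16 in Powder 3 and 7.95 in Powder 2, and between 7.32 and 7.60 in the others. Of 5 other GABA, taurine and betaine transporters listed, 2 were matched by name and 0 of these were called. The taurine transporter Slc6a6 had a difference of -0.066 (SE 0.066, r = 0.239). The listed Slc6a20 was not matched by name. Slc6a20a, described above, was called higher (difference 0.31, SE 0.48, r = 0.939).

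Of 9 other sulfate, dicarboxylate and organic ion transporters, 1 was called higher. It was Slc22a6, the organic anion transporter OAT1 (difference 0.30, SE 0.37, r = 0.935), which also belongs to the leptomeningeal list. Slc13a3, a dicarboxylate carrier, and Slc22a8, OAT3, had r of 0.8995 and 0.905 and were not called. Of 10 other meningeal transcription factors, 0 were called. Twist1 had an r of 0.854 with a difference of 0.0027 (SE 0.11), and Zic4 an r of -0.54 with a difference of -0.062 (SE 0.069).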

How the data were processed

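Hypothalamic RNA of 10 rats was hybridized to 1 Affymetrix rat genome array each. Per the study's methods the authors used FARMS, a factor-analysis summarization, in R, and the deposited values are on a log2 scale and were taken unchanged. The 57 control probe sets among 31099 were dropped, which left 31042 for testing. The array annotation gave a single gene name to 20826 of these. In gene lists each gene was represented by its probe set of highest mean.

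Rank products ranked the log2 differences of all 25 C-to-P rat comparisons over the probe sets (Python 3.11.15, numpy 2.4.6). The ranks were compared with 100 permutations of the values among the probe sets within each array. Rats were not permuted between diets. Limma 3.58.1 in R 4.3.3 gave differences, standard errors and adjusted p-values. Both were run on simulated data with independent noise of the same size in every probe set. The real data have mostly flat probe sets, so that run does not check the FDR here. Exact permutation tests used all assignments of rats. Arrays have no read depth, so the number of rats sets the precision, and pairwise array correlations were 0.997 to 0.999. Named genes were all probe sets of the 9 genes, the 10 varying genes with the highest mean r with them, and genes of 14 lists of partners and cell types; where a list was long, examples were taken with called genes first. The members, lists and tests were chosen with earlier results of these data known. Alternatives were limma, rank sums, stricter thresholds, scaling, filters, normalizations, a replicate block and leaving out rats. The restriction to the lower 6 rats was chosen after seeing the data.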

Additional observations from a re-analysis of the deposited data

How the results depend on the processing

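Rank products called 6 of the 9 probe sets higher. The count was 0 with limma in their place, 0 with rank sums, 0 when only probe sets with an SD above 0.1 were ranked, and 3 (Slc47a1, Mgp and Islr) when differences were scaled by the within-group SD. Limma called 0 of all 31042 probe sets, and rank sums called 2 of them higher and 6 lower. With the SD filter, 1 of 1391 was called higher and 3 lower. The counts of 0 are therefore not particular to the 9. It was between 4 and 6 with an FDR below 0.01, quantile normalization, median centring or a filter on the mean. Leaving out 1 rat gave 1 to 7 higher calls, the lowest without Chow 1, and leaving out Chow 1 and Chow 4 gave 0 higher calls and 5 lower. Slc13a4 was called in both directions without Powder 1 (FDR 0.022 higher, 0.038 lower) and without Powder 4 (FDR 0.0046 higher, 0.047 lower). Over all probe sets, 120 were called higher without Chow 1 and 45 without both rats, against 293 with all rats. Replicate numbers did not pair the rats (correlation of deviations between -0.33 and 0.28), and the replicate block gave 4 higher calls and 5 lower, with Slc13a4 and Ptgds called both ways. With this block, 202 of all 31042 probe sets were called higher and 326 lower, against 293 and 253 without it. Limma called 0 of the 9 in every setting. The differences were negative without Chow 1 for Slc6a13 (-0.028), Slc13a4 (-0.026), Ptgds (-0.048) and Tbx18 (-0.042). That of Ptgds was also negative without Chow 4 (-0.024) and without Powder 1 (-0.059). Over the 10 omissions of 1 rat the difference ran from -0.026 to 0.57 for Slc13a4, -0.059 to 0.40 for Ptgds, -0.028 to 0.35 for Slc6a13, -0.042 to 0.29 for Tbx18, 0.15 to 0.28 for Mgp, 0.056 to 0.39 for Slc47a1 and 0.14 to 0.32 for Islr. Slc47a1 and Islr were not called without Chow 1 (0.056 and 0.14) or without Chow 4 (0.10 and 0.15). Slc47a1 was also not called without Powder 4. Ptgds was not called higher without Chow 1, Chow 4 or Powder 1, and Slc6a13 not without Chow 1, Chow 4, Powder 1 or Powder 4. Without Chow 1 and Chow 4 the difference was -0.33 for Slc6a13, -0.49 for Slc13a4, -0.19 for Slc47a1, -0.40 for Ptgds and -0.22 for Tbx18, and the leptomeningeal list had 0 genes called higher in place of 14. The mean r of the 21 pairs, 0.888, was 0.770 without these 2 rats, 0.426 in the lower 6 rats alone, 0.843 with Spearman rho and 0.858 to 0.908 with 1 rat left out. The cause of these changes was not tested. Flat probe sets limit what can be said of Foxc1 and of most list genes.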

Other observations

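The varying probe sets with the lowest mean r with the 7 genes, chosen after their values were seen, were Dynlrb2 (-0.80), a dynein light chain of motile cilia, Mlf1 (-0.76), Aurkb (-0.75), a mitotic kinase, Spg7 (-0.74) and Tmem212 (-0.73, in another of its probe sets than the one in the ependymal list, which had -0.69). Of the 1384 varying probe sets that are no member, 1 had a mean r below -0.80 and 103 had one above 0.9. In the search for single rats far from their group, by a Dixon criterion (critical value 0.71 for 5), 14 groups of 5 rats were checked for the 7 genes. In these groups 0 such rats were found. The criterion looks for 1 far rat and can miss 2 that lie together, as Chow 1 and Chow 4 did for Slc13a4 (9.36 and 9.06). The count of 0 therefore does not show that no rats stood apart.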
